A study of Rattus norvegicus with 8 samples.

Results

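Fasn, Acaca, Lss and Hk1 are 4 enzyme genes of lipid synthesis and of the sugar metabolism that feeds it. They were chosen by measured values: each is listed as lower in droplet-rich glia in the authors' deposited table of differential expression. Their lower level there is therefore the ground of the choice and not a finding. The 4 genes are among 1187 listed genes, of which 548 were lower and 639 higher in droplet-rich glia. The glia came from rat hippocampus at postnatal day 0, and the labels call them astrocyte cultures. They were used between day 3 and day 5 in vitro, in a basal medium that held glucose (0.45%), pyruvate (1 mM), glutamax (2 mM) and fetal bovine serum (10%). Nile red, which fluoresces where neutral lipid is stored, was applied to both groups, and cells were sorted by its signal into 4 samples with few lipid droplets (LD-low) and 4 with many (LD-high). No genotype, drug or strain is named for either group, and the labels do not say whether the samples came from separate animals or cultures.

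Each gene has a single level for each group, with a p and a q from the authors, so no level below has a spread between samples. The levels are taken as FPKM, fragments scaled by transcript length and by the number of mapped fragments, because the submitters name Cuffdiff. A gene counts as listed where the authors' q, their p adjusted for the number of genes tested, is below 0.05. Their p and q values fit a total of 12981 tested genes, so that 4.22% of tested genes were listed lower and 4.92% higher. Genes that are not listed either did not pass or were not tested. Markers of several cell types were listed: of 19 markers of microglia and macrophages 12 were listed, all higher, and of 19 neuron markers 13 were listed, all lower. Of 15 astrocyte markers 3 were listed, all higher in LD-high glia. Gfap, Aqp4, Slc1a2 and Slc1a3, which define astrocytes, were not listed, so their levels could not be set against the label.

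Cells make fatty acids from acetyl-CoA in the cytosol. Acetyl-CoA carboxylase (Acaca) forms malonyl-CoA, and fatty acid synthase (Fasn) joins malonyl-CoA units into palmitate. Sterols are built from the same acetyl-CoA through squalene, and lanosterol synthase (Lss) closes oxidised squalene into the ring structure of lanosterol, the precursor of cholesterol. Hexokinase 1 (Hk1) phosphorylates glucose on its entry into the cell and is the main hexokinase of brain. Glucose carried through glycolysis to pyruvate and citrate is a source of cytosolic acetyl-CoA, and the pentose phosphate branch provides NADPH for both syntheses. Astrocytes make much of the cholesterol of the postnatal brain. Transcription factors of the SREBP family drive many genes of fatty acid and sterol synthesis, and ChREBP, encoded by Mlxipl, drives lipogenic genes when glucose is plentiful.

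The regions before the annotated starts of these genes are shown for description only. The 4 genes share a direction because they were chosen by it, and common regulation was not tested. RefSeq promoter sequences on the GRCr8 build were held for 2 of the 4 genes, Lss with 1 start and Hk1 with 2 starts. Fasn and Acaca are not shown. Each line gives the 250 bases before a start, 5′ to 3′ on the gene's strand. Capitals mark matches on either strand to CCAAT, the box bound by NF-Y, or to GGGCGG, the GC box bound by Sp1.
Lss, chr20:12118231-12118480, minus strand: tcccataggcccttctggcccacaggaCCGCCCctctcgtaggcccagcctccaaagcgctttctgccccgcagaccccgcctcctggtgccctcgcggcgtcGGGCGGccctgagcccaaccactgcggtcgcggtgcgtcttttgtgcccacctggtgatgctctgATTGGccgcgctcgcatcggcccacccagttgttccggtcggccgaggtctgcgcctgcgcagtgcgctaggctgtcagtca
Hk1, upstream start, chr20:30874815-30875064, minus strand: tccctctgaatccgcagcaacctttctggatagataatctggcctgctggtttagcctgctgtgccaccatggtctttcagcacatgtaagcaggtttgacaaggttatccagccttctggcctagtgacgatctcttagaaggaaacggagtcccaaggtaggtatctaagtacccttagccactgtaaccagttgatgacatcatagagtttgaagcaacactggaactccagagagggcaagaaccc
Hk1, downstream start, chr20:30842073-30842322, minus strand: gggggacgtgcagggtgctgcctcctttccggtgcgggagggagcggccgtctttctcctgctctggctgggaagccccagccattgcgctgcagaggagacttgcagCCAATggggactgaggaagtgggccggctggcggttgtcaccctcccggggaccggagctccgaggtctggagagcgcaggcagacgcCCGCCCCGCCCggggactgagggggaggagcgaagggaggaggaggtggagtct

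Lss and the downstream start of Hk1 resembled each other in composition, and the upstream start of Hk1 did not. The GC content was 69.2% before the Lss start, 70.0% before the downstream Hk1 start and 48.8% before the upstream Hk1 start, against a median of 51.2% over 33469 RefSeq promoters. The window of Lss held 1 CCAAT box, 82 to 78 bases before the start and on the opposite strand, and 2 GC boxes, 223 to 218 and 147 to 142 bases before it. The downstream start of Hk1 also held 1 CCAAT box, 142 to 138 bases before the start, and 2 GC boxes, 54 to 49 and 49 to 44 bases before it, which share a base. The upstream start of Hk1 held neither. Of all promoter windows of this length, whatever their GC content, 34.0% hold a CCAAT box and 30.5% a GC box. The shares among windows of like GC content were not computed. The core of the sterol regulatory element to which SREBP binds, TCACNCCAC, was searched as well and was found in 0.974% of all windows. The E-box CACGTG was found in 5.59%. Neither was in any of the 3 windows, which says only that these letters are not there. The 1 level per gene does not show which start of Hk1 the glia used.

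Fasn and Acaca, chosen as listed lower, were the only listed genes of 27 symbols for fatty acid synthesis, elongation and desaturation. Fasn was at 17.3 FPKM in LD-low and 10.4 FPKM in LD-high glia in the authors' deposited table, so that the LD-high level was 60.0% of the LD-low level (log2 change -0.74, q = 0.0351). Acaca was at 8.12 FPKM in LD-low and 4.02 FPKM in LD-high glia in that table, or 49.5% (log2 change -1.02, q = 0.0214). Acaca had the lowest level of the 4 genes in both groups. Its level was 47.0% of that of Fasn in LD-low and 38.7% in LD-high glia, on the FPKM scale. Fasn (ENSRNOG00000045636) lies on chromosome 10 at 109987735 to 110005901 in the rn6 build, and Acaca (ENSRNOG00000034013) on the same chromosome at 71536533 to 71719910. The nearest other listed gene was 0.763 Mb from Fasn and 0.665 Mb from Acaca.

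Lss, the sterol enzyme, had the highest level of the 4 genes in both groups. Its level was 27.5 FPKM in LD-low and 15.2 FPKM in LD-high glia in the authors' deposited table, or 55.2% (log2 change -0.86, q = 0.0257). Hk1, the glucose-phosphorylating enzyme, was at 20.04 FPKM in LD-low and 10.1 FPKM in LD-high glia in the same table, or 50.3% (log2 change -0.99, q = 0.0293). Lss (ENSRNOG00000054549, chromosome 20, 12842884 to 12870497) and Hk1 (ENSRNOG00000046891, chromosome 20, 31912262 to 31956649) also share a chromosome in rn6. The nearest other listed gene was 0.742 Mb from Lss and 0.840 Mb from Hk1. Each of the 4 members had 1 other listed gene within 1 Mb, and the unlisted genes between them were not mapped.

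**Figure D1:**
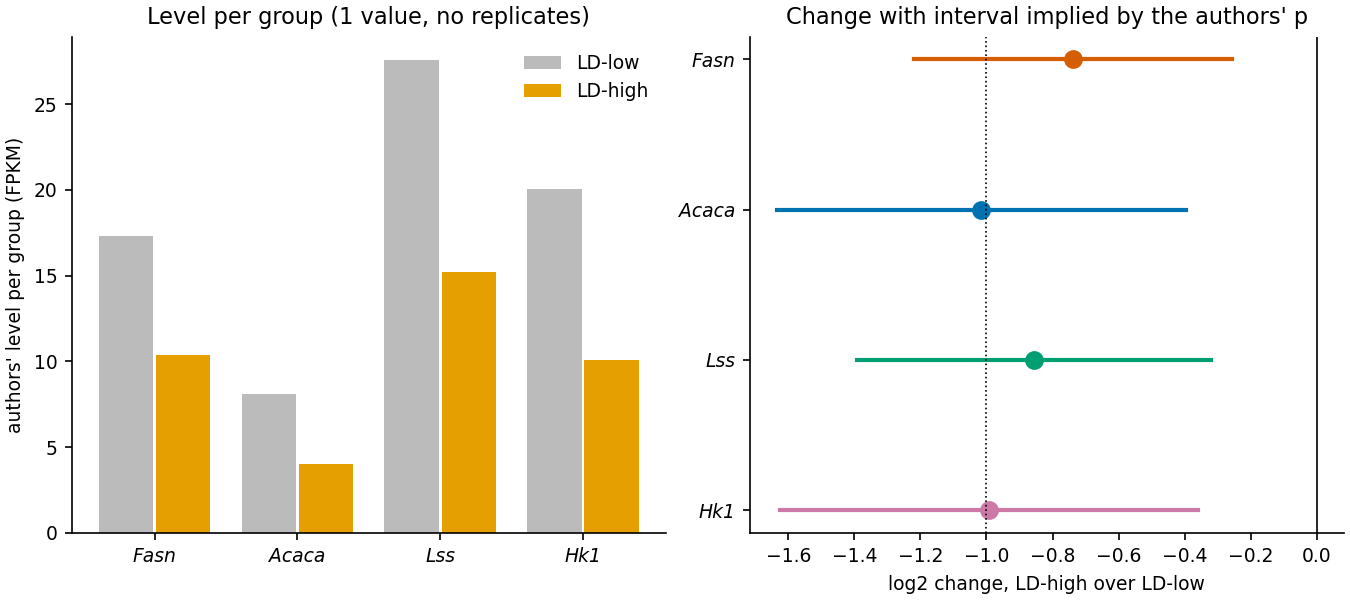
Left, the authors' level of each gene in LD-low and LD-high glia in FPKM, 1 value per group. Right, the log2 change of LD-high over LD-low with the 95% interval that the authors' p implies under a normal error, with a dotted line at a 2-fold fall. The 4 changes lie between -1.02 and -0.74, and their intervals overlap, which does not test a difference.

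The order of the levels was Lss, Hk1, Fasn, Acaca in LD-low glia and Lss, Fasn, Hk1, Acaca in LD-high glia. Fasn and Hk1 changed places: Hk1 was 2.74 FPKM above Fasn in LD-low and 0.303 FPKM below it in LD-high glia. Without values per sample it is not known whether neighbours in this order differ beyond their spread. Summed over the 4 genes, the level was 73.0 FPKM in LD-low and 39.7 FPKM in LD-high glia.

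The size of the error can be read only through the authors' p. Under a normal error, the p of Fasn (0.0027 from Cuffdiff) is that of a log2 change with a standard error of 0.25. The same reading gives a standard error of 0.32 for Acaca, 0.27 for Lss and 0.32 for Hk1. On that approximation the 95% interval of the LD-high level was 42.9% to 83.8% of the LD-low level for Fasn and 32.2% to 76.0% for Acaca. Since the genes were chosen by the same p, these intervals had to lie below the LD-low level and are no support for the fall. The interval was 38.1% to 80.0% for Lss and 32.4% to 77.9% for Hk1. Whether the changes of the 4 genes differ from each other was not tested. The widest gap, between Fasn and Acaca, was 0.28 on the log2 scale. Its implied standard error was 0.40 if the errors of both genes are independent. All genes were measured in the same samples, so that may not hold. On that assumption none of the 6 pairs differed by more than 1 such standard error.

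Within the listed lower genes these 4 had small falls, and 3 of them had LD-low levels above the median of 12.4 FPKM. Of the 528 lower genes with levels above 0 in both groups, Fasn had the 9th smallest fall, Lss the 51st, Hk1 the 119th and Acaca the 134th. The median log2 change of the 528 genes was -1.40, and that of the 4 members was -0.92. In order of q from the smallest, Acaca stood at 360, Lss at 398, Hk1 at 421 and Fasn at 454 of the 548 lower genes. By LD-low level from the highest, Lss stood at 112, Hk1 at 159, Fasn at 194 and Acaca at 361 of the 528. Among the 250 lower genes whose LD-low level lay within the range of the members, the median log2 change was -1.27. All these genes had passed the authors' threshold.

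**Figure D2:**
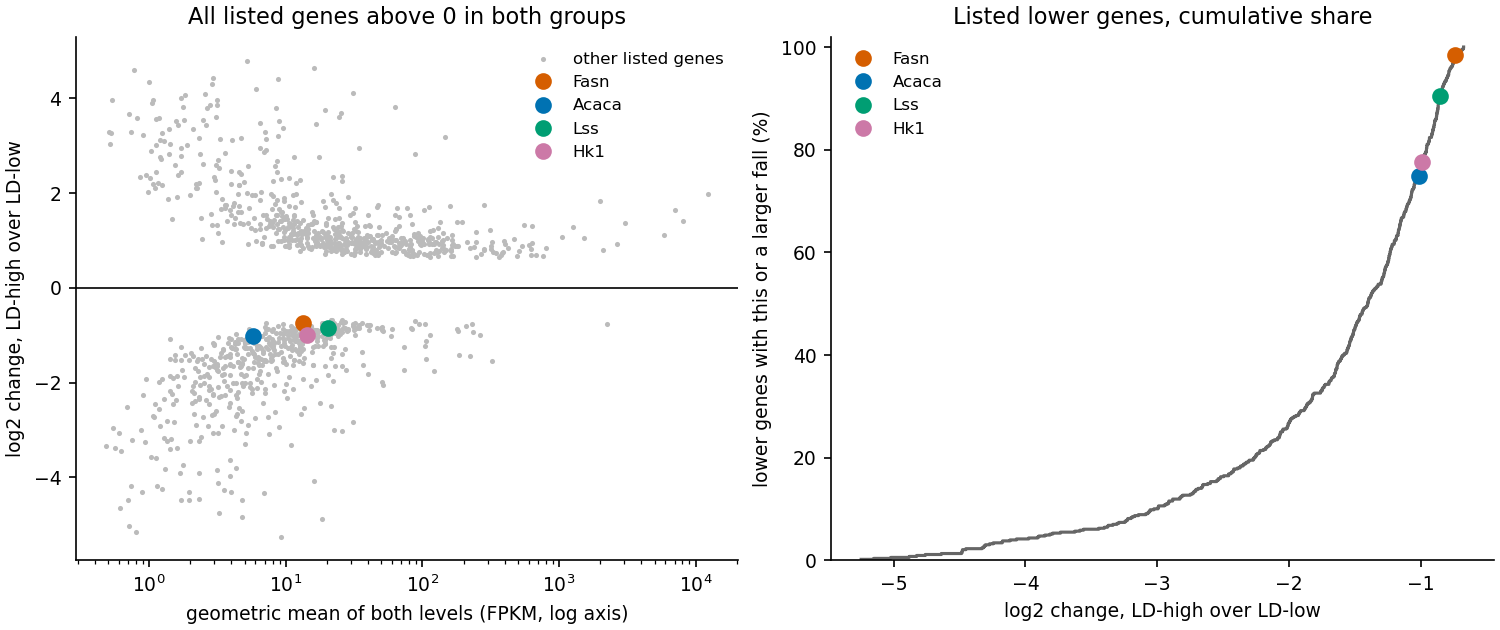
Left, the log2 change of LD-high over LD-low against the geometric mean of both levels in FPKM on a log axis, for every listed gene above 0 in both groups. Right, the percentage of listed lower genes that had a given or a larger fall. Fasn, Acaca, Lss and Hk1 lie in the upper part of the lower cloud, with falls smaller than the median of -1.40.

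The threshold that made the list bears on these genes. Among lower genes, the last inside it were Aff3 (11.0 FPKM in LD-low and 6.001 FPKM in LD-high glia) and Ralgps2 (9.42 and 2.58 FPKM), both with q = 0.0498 in the authors' deposited table. Genes just outside are not in the files. At q below 0.01, 1.98% of tested genes were lower and 0 of the 4 members were among them. At q below 0.05 with at least a 2-fold fall, 3.14% of tested genes were lower and Acaca was the 1 member among them. That share leaves out 20 listed lower genes at 0 in LD-high glia, for which no log2 change could be computed. Hk1 missed that limit narrowly with a 1.99-fold fall.

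The other genes of these pathways were mostly not listed. The lists for the pathways hold 280 symbols, and besides the 4 members 11 of the other 276 were listed, 3 of them lower and 8 higher. As shares of the 276 symbols these are 1.09% and 2.90%, beside 4.22% and 4.92% of all tested genes. How many of the 276 the authors tested is not known. Acaca and Fasn were the 2 listed genes of 27 symbols for fatty acid synthesis, elongation and desaturation. Lss was the 1 listed gene of 24 for cholesterol synthesis. Acacb, the other acetyl-CoA carboxylase, and the hexokinase genes Hk2, Hk3 and Hkdc1 were not among the listed genes.

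Of 30 symbols for hexokinases and glycolysis, Pfkfb2 was listed beside Hk1, and both were lower. Pfkfb2 encodes an enzyme that makes and removes fructose 2,6-bisphosphate, an activator of glycolysis. Its level was 16.1 FPKM in LD-low and 5.75 FPKM in LD-high glia in the authors' deposited table (log2 change -1.48, q = 0.00841). Of 35 symbols for pyruvate entry and the citrate cycle, 1 was lower and 1 higher. Pdp2, a phosphatase that activates pyruvate dehydrogenase, was at 10.5 and 3.69 FPKM (log2 change -1.51, q = 0.0152), and Fh, fumarase, at 16.9 and 32.1 FPKM (log2 change 0.93, q = 0.0306), each given for LD-low and then LD-high glia in that table. None of 17 symbols for glucose and lactate transport was listed. The 1 listed gene of 14 for glycogen metabolism was Pgm1, phosphoglucomutase, which was higher there (6.67 and 14.1 FPKM, q = 0.0390). Of 25 symbols for the supply of acetyl-CoA and NADPH, Nadk2, the mitochondrial NAD kinase, was listed and was higher in that table (7.21 and 13.3 FPKM, q = 0.0437).

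Among 32 symbols for regulators of lipogenesis, Mlxipl, the gene of ChREBP, was the 1 that was listed. It was higher in LD-high glia, at 0.270 FPKM in LD-low and 4.21 FPKM in LD-high glia by that same deposited table of the authors (log2 change 3.96, q = 0.00640). Its change was thus opposite in sign to those of Fasn and Acaca, at a level in LD-low glia far below theirs. Of 16 symbols for sterol uptake and esterification, 3 were listed. Lrp8, a lipoprotein receptor that is also a reelin receptor of neurons, was lower (20.6 and 8.19 FPKM, log2 change -1.33, q = 0.00187). Mylip, a ubiquitin ligase that degrades lipoprotein receptors, was higher (0.542 and 2.50 FPKM, log2 change 2.20, q = 0.0237). Npc2, which binds cholesterol in lysosomes, was higher as well (90.0 and 189 FPKM, log2 change 1.07, q = 0.00187), all in the authors' deposited table. None of 34 symbols for triglyceride and phospholipid synthesis was listed. That list does not hold Lpcat2, a phospholipid acyltransferase that was listed higher and is given below. Of 27 symbols for fatty acid oxidation 2 were listed, both higher: Ucp2, a carrier of the inner mitochondrial membrane (6.77 and 17.2 FPKM, q = 0.0147), and Etfa, an electron transfer flavoprotein (13.8 and 29.6 FPKM, q = 0.0197), in that table.

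**Figure D3:**
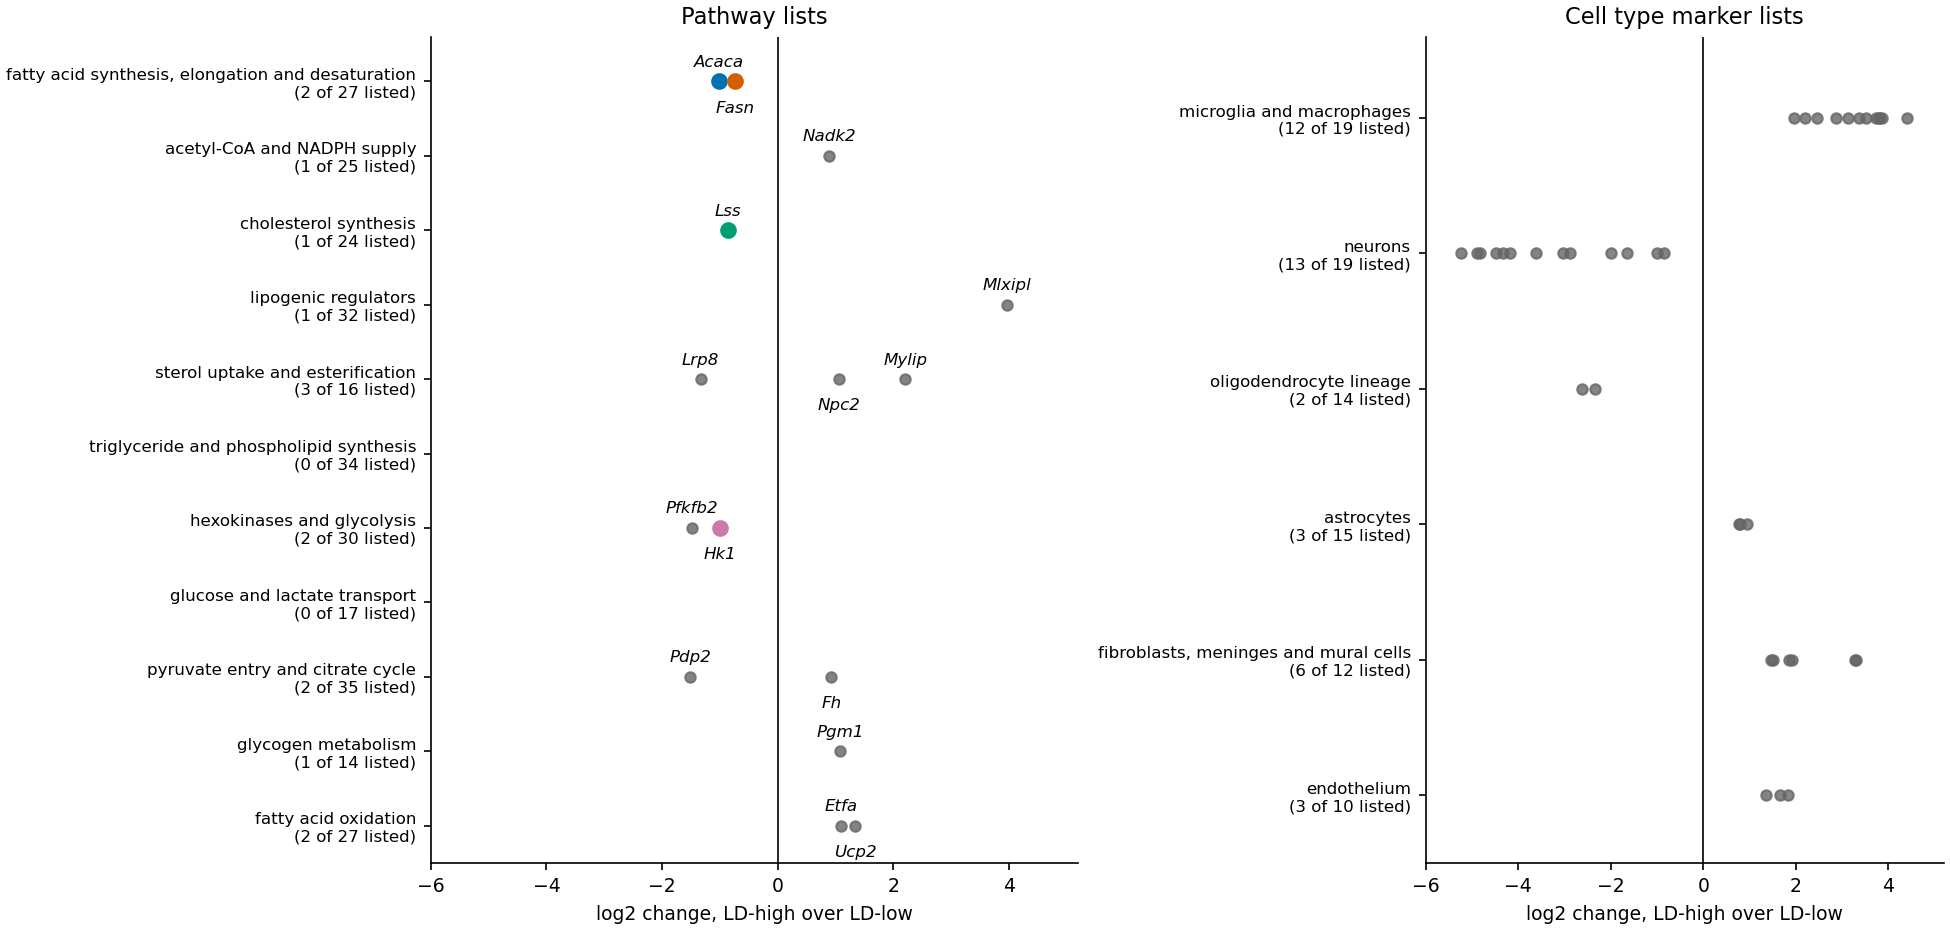
The log2 change of LD-high over LD-low of each listed gene of the pathway lists (left) and the cell type marker lists (right), with the number of listed genes among the symbols of each list. Coloured points are Fasn, Acaca, Lss and Hk1. Mlxipl lies at 3.96 on the opposite side, and the neuron markers reach from -5.25 to -0.84.

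Markers of cell types moved in the same comparison. The 13 listed neuron markers summed to 721 FPKM in LD-low and 191 FPKM in LD-high glia, with a median log2 change of -3.62, and 0 of them were at 0 in either group. Among them were Neurod1, a neuronal transcription factor, with a log2 change of -5.25, and Dcx, a microtubule protein of young neurons, with -4.88. Of the 13 neuron markers, 2 fell by no more than Acaca did, Map2 (log2 change -0.996) and Gap43 (-0.84), which are named here because of their values. The 2 listed of 14 oligodendrocyte lineage markers summed to 25.9 FPKM in LD-low and 4.39 FPKM in LD-high glia. The sign of the members was fixed by their choice and says nothing of these markers. The 12 listed markers of microglia and macrophages summed to 52.6 FPKM in LD-low and 558 FPKM in LD-high glia. The listed markers of fibroblasts, meninges and mural cells (6 of 12) summed to 71.8 FPKM in LD-low and 224 FPKM in LD-high glia. Those of endothelium (3 of 10) summed to 12.96 and 41.0 FPKM, and those of astrocytes (3 of 15) to 49.0 and 87.6 FPKM, in the same order. All of these marker sums hold only markers that passed the authors' threshold, so their directions follow from the listing. The levels of the unlisted markers are not known, so the sums do not measure the share of a cell type. The part of these cell types in the levels of Fasn, Acaca, Lss, Hk1 and Mlxipl was not tested. In these mixed samples, fewer cells that express a gene and less of its RNA per cell cannot be told apart.

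The genes whose pair of levels lay nearest to each member were taken by the distance between the log2 levels in both groups, over 2 group values per gene. For Fasn these were Tet3 (17.7 and 10.6 FPKM, distance 0.042) and Cdc42bpb (17.9 and 10.4 FPKM, distance 0.048). For Acaca they were Btrc (8.21 and 4.04 FPKM, distance 0.017) and Trio (7.87 and 3.93 FPKM, distance 0.056). For Lss, Mark2 is given (28.0 and 14.8 FPKM, distance 0.044). For Hk1 they were Arel1 (19.5 and 10.2 FPKM, distance 0.041) and Cmip (19.3 and 9.81 FPKM, distance 0.063). Levels are given for LD-low and then LD-high glia in the authors' deposited table.

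The authors also deposited a test of gene ontology terms (PANTHER) on the listed genes, with p corrected for 8341 terms and all rat genes as the reference. Of the 104 terms deposited for lower genes, 0 named a lipid, sterol, fatty acid, sugar or acyl group. The 5 of them that named a metabolic process were all of its regulation, such as regulation of cellular metabolic process (p = 0.00137 as reported by the authors). Of the 229 terms for higher genes 20 named a metabolic process, among them metabolic process itself (p = 3.39e-06 as reported by the authors). Biosynthetic process was also among the terms for higher genes (p = 0.0136 as reported by the authors). Of the same 229 terms, 3 named a lipid or carbohydrate: response to lipid (p = 1.56e-07), response to carbohydrate (p = 0.0153) and cellular response to lipid (p = 0.0392), as reported by the authors. Which genes stood behind a term is not given there.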

How the data were processed

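RNA of 4 LD-low and 4 LD-high samples was sequenced. Bowtie2, Cuffdiff and the genome rn6 are named, per the submitters' processing notes; of their versions, the annotation and the strand setting the sources used here say nothing. The cDNA was amplified before library construction, per the labels' protocols. The authors deposited 1 level per gene and group, read here as FPKM, together with p-value, q-value and log2 fold change, for listed genes only. Per-sample columns number 0, so depth is unknown and no test between samples was run.

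Log2 changes were computed from the levels with Python 3.11.15 and pandas 2.3.3 and lay within 1.15e-05 of those deposited. The number of tested genes is the rank of p multiplied by q and divided by p, which gave 12981 at each of 91 distinct p values. All 1187 p values are whole multiples of 5e-05, with a tolerance of 1e-06 of that step. The implied standard error is the log2 change over the normal deviate of p (SciPy 1.17.1), added after the data were seen. Starts were raised by 1. Of the 280 pathway symbols 277 are current RefSeq symbols, and 0 listed genes carry an older name of one.

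Members and lists were chosen with earlier results of these data known. Besides the members, the rule names up to 4 listed genes per list by size of change, the 2 nearest genes per member, and the lower genes of largest q. Some genes that the rule takes in are not reported. Listed genes outside it are said to be chosen by their values. Gfap, Aqp4, Slc1a2, Slc1a3, Acacb, Hk2, Hk3 and Hkdc1 also lie outside it and are named only as not listed. Of the listed cell type markers, only neuron genes are named. The plan also held tests of values per sample, which could not be run.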

Additional observations from a re-analysis of the deposited data

How the results depend on the processing

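Adding 1 FPKM to both levels cannot turn a direction and always makes a change smaller, so the kept direction is no support. It moved each log2 change of Fasn, Acaca, Lss and Hk1 by less than its implied standard error. At q below 0.01 none of the 4 was listed any more (log2 changes -0.74, -1.02, -0.86 and -0.99 in that order), and with at least a 2-fold change Fasn (-0.74), Lss (-0.86) and Hk1 (-0.99) were not. These limits pass fewer genes by construction. At q below 0.01, 257 lower and 297 higher genes were listed in place of 548 and 639, and 4 in place of 15 pathway symbols. With at least a 2-fold change 402 higher and 407 lower genes were listed, so that the larger number was no longer that of higher genes. Both counts leave out genes at 0 in a group, 6 higher and 20 lower, which have no log2 change. A level of at least 1 FPKM in the higher group changed no count of lower, higher or pathway genes. No replicate could be left out, since the values used are 1 per group. No paired analysis was possible because the columns carry no replicate numbers. Depth per sample is unknown, and the low levels of Mlxipl and Mylip in LD-low glia come without a known error.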

Other observations

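Other genes of lipid and insulin action are listed outside the pathway lists, and those named here were chosen after their values were seen, so their directions support nothing. Lower in LD-high glia in the authors' deposited table were Irs1, an adaptor of the insulin receptor (44.6 and 24.8 FPKM in LD-low and LD-high glia, q = 0.00556), and Thra, a thyroid hormone receptor (34.6 and 11.0 FPKM, q = 0.0117). Higher in that table were Scp2, a sterol carrier protein (11.6 and 23.0 FPKM, q = 0.0158), Cyp7b1, an oxysterol hydroxylase (12.5 and 28.2 FPKM, q = 0.00640), and Dbi, the acyl-CoA binding protein (389 and 617 FPKM, q = 0.0498). Tmem159, which encodes a protein of lipid droplet assembly, was also higher (9.63 and 24.4 FPKM, q = 0.00556), as was Lpcat2, an acyltransferase of phospholipid remodelling (0.724 and 8.39 FPKM, q = 0.00187).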
